A study of Rattus norvegicus with 4 samples.

Results

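The mitochondrial ribosomal RNAs of the rat were followed in 4 libraries of untreated FRT cells. FRT is an epithelial line from the thyroid of the Fischer rat that grows as a polarised sheet. The genes are 2 of the 32754 Ensembl genes counted, ENSRNOG00000043866.1 and ENSRNOG00000030478.3, and are called here the 16S and the 12S rRNA. They were selected by identifier because they had the highest mean levels, so their mean levels are described and not tested. The files list identifiers alone, and the names are those given with the selection. No reference used here linked an identifier to a symbol, position or sequence, so neither these names nor the markers of thyroid epithelium were checked. The only group held 4 separate preparations of the line, grown in serum-containing Coon's modified F12 medium without any treatment, with no second genotype, agent or time. Nothing in the labels says whether the preparations differed in passage, density or day of culture. Where a spread between replicates is given below, it is a spread between these preparations and the libraries made from them.

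Mitochondrial ribosomes translate the few proteins that the mitochondrial genome encodes, all of them parts of the respiratory chain and the ATP synthase. The 12S rRNA is the RNA of the small subunit, where messenger RNA is decoded, and the 16S rRNA that of the large subunit, where peptide bonds are made. Both are cut from one long heavy-strand transcript, in which the 12S lies before the 16S and transfer RNAs flank them. Both end in short tails of adenosines in mammals. The libraries were started from the 3′ ends of adenylated RNA, so a count is meant to stand for a tag at the end of a transcript whatever its length. Read positions are not part of the counts, so this was not checked for the rRNAs. The counts do not give the number of rRNA molecules or ribosomal subunits per cell.

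The 16S rRNA was the first-ranked gene in each of the 4 libraries. It stood at 208341 CPM (counts per 1000000 gene counts) in replicate 1, 319358 CPM in replicate 2, 203903 CPM in replicate 3 and 143304 CPM in replicate 4. Replicate 2 was therefore high, replicate 4 low, and replicates 1 and 3 lay close together between them. The mean was 218727 CPM ± 73355 (SD, n = 4), a coefficient of variation (SD over mean) of 33.5%. From the lowest to the highest library the level differed 2.23-fold. These values rest on 166262 to 638453 counts per library, and the exact Clopper-Pearson 95% intervals of the shares, which cover counting error only, were 0.122 to 0.139 percentage points wide.

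With the same totals the 12S rRNA kept the order of libraries with a narrower spread. It stood at 57406 CPM in replicate 1, 63768 CPM in replicate 2, 57008 CPM in replicate 3 and 37794 CPM in replicate 4. On this scale replicates 1, 2 and 3 were close to each other and replicate 4 lay well below. Per 1000000 counts of all genes other than the rRNAs, which replicate 2's own rRNA counts do not enlarge, the 12S level was 78182 in replicate 1, 103373 in replicate 2, 77132 in replicate 3 and 46152 in replicate 4. On that scale replicate 2 stood well above replicates 1 and 3. TMM (the trimmed mean of M-values, a scaling that sets extreme genes aside) narrowed this gap. With it the 12S level was 71721 in replicate 2, against 55275 in replicate 1 and 59961 in replicate 3. With gene totals the mean was 53994 CPM ± 11235 (SD, n = 4), with a coefficient of variation of 20.8% and a 1.69-fold range.

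How much each library added to the spread depended on the scaling. With gene totals and without replicate 4 the coefficient of variation of the 12S rRNA was 6.39% and its fold range 1.12. Without replicate 2 these values were 22.1% and 1.52, near those of all 4 libraries. For the 16S rRNA, leaving out replicate 2 gave a coefficient of variation of 19.6% and a fold range of 1.45, and leaving out replicate 4 gave 26.8% and 1.57. Relative to the counts of other genes, the 2.24-fold range of the 12S rRNA became 1.34 without replicate 4 and 1.69 without replicate 2. The 2.96-fold range of the 16S rRNA became 1.88 and 1.62 in the same order. Both outer libraries thus carried the spread of both rRNAs on that scale, while with gene totals the 12S spread came mostly from replicate 4.

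**Figure D1:**
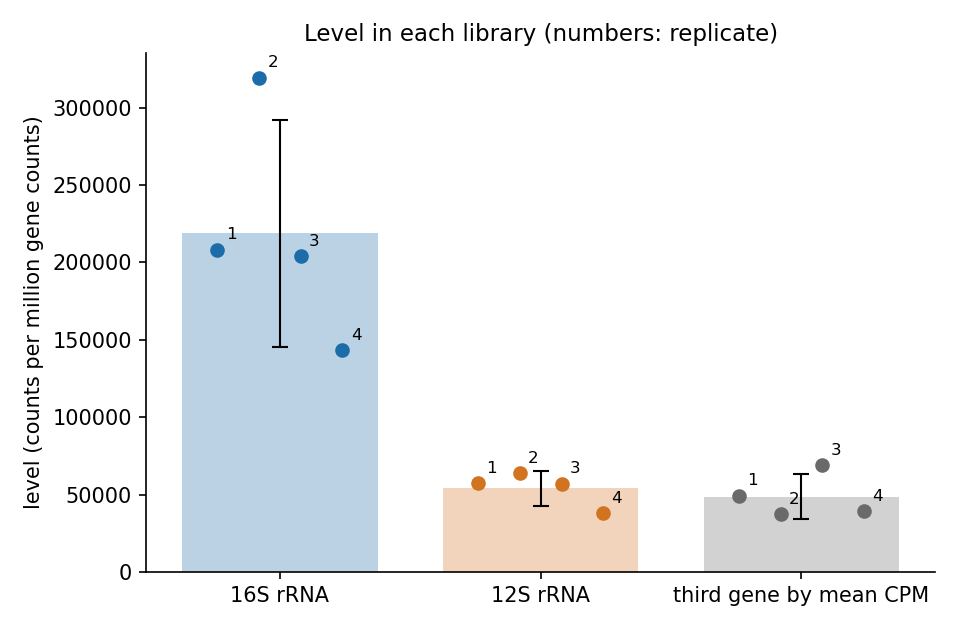
Level of the 16S rRNA, the 12S rRNA and the third gene by mean level, in CPM on a linear axis. Bars are means, error bars SD over 4 libraries, and points single libraries numbered by replicate; replicate 2 was highest for both rRNAs (319358 and 63768 CPM) but lowest for the third gene (37156 CPM) with these totals; with TMM, DESeq2 and totals without the rRNAs replicate 4 was its lowest.

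By mean level the rRNAs held ranks 1 and 2, but the rank of the 12S rRNA was not the same everywhere. The third gene by mean, ENSRNOG00000062158.1, which had no symbol in the files, stood at 48584 CPM ± 14575 (SD, n = 4). Its levels were 49130 CPM in replicate 1, 37156 CPM in replicate 2, 68977 CPM in replicate 3 and 39071 CPM in replicate 4. It exceeded the 12S rRNA in replicates 3 and 4, and the 12S rRNA was the second gene in replicates 1 and 2 only. The number of 12S counts per count of this gene ran from 0.826 in replicate 3 to 1.72 in replicate 2, with a mean of 1.17 ± 0.390 (SD, n = 4). The mean levels of the 12S rRNA and this gene differed by less than the spread of either. The fourth gene by mean lay far below, at 11024 CPM ± 4154 (SD, n = 4).

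Together the rRNAs took 27.3% ± 8.32 of gene counts (SD, n = 4). Their combined share was 26.6% in replicate 1, 38.3% in replicate 2, 26.1% in replicate 3 and 18.1% in replicate 4. The highest share was 2.12 times the lowest. Of the 4 exact 95% counting intervals none overlapped another, but they rest on 210111 to 765937 counts and cover counting error only. Of all 7571 genes tested, 65.7% varied beyond counting noise, so this lack of overlap says little about the rRNAs. When reads assigned to no gene were added to the total, the combined share was 17.5% ± 5.60 (SD, n = 4) and the highest library still held 2.16 times the share of the lowest.

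Much of the difference in depth between libraries was made of these rRNAs. The libraries held 1304869, 1999175, 1670508 and 1160202 gene counts in replicates 1 to 4, a 1.72-fold range. Without the rRNAs they held 958104, 1233238, 1234654 and 950091 counts, a 1.30-fold range. Replicate 2 was the deepest library by gene counts, yet its other genes had practically the same number of counts as those of replicate 3. Replicates 1 and 4 were likewise close once the rRNAs were set aside.

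**Figure D2:**
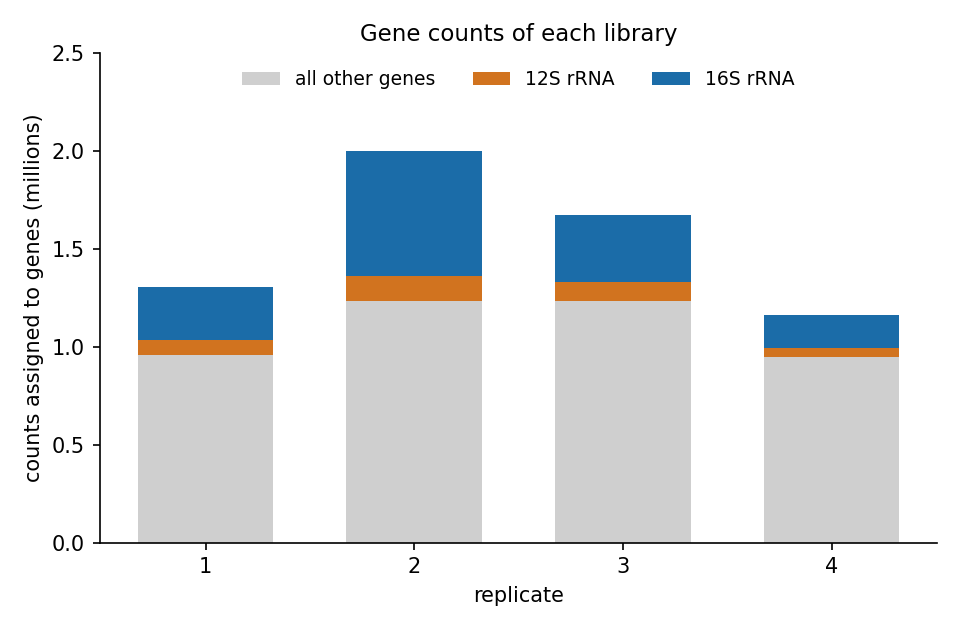
Counts assigned to genes in each library (axis in units of 1000000 counts), divided into the 16S rRNA, the 12S rRNA and all other genes. The part of all other genes was 1233238 counts in replicate 2 and 1234654 in replicate 3, while the rRNAs added 765937 and 435854 counts.

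A share of gene counts lowers every other share as it rises, and the rRNAs were large enough for this to show. Taking them out of the total multiplied the CPM of all other genes by 1.36 in replicate 1, 1.62 in replicate 2, 1.35 in replicate 3 and 1.22 in replicate 4. Of the 1446 other genes with a mean of 100 CPM or more, 672 (46.5%) were lowest and 154 (10.7%) highest in replicate 2 with the deposited totals. With totals that left out the rRNAs, 356 (24.6%) were lowest and 469 (32.4%) highest there. TMM gave 435 lowest (30.1%) and 392 highest (27.1%) in replicate 2. The number of genes at 1 CPM or more in every library was 8731 with deposited totals and 9040 with totals that left out the rRNAs.

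The same choice changed how far the rRNAs themselves ranged. Per 1000000 counts of other genes, the 16S rRNA had a 2.96-fold and the 12S rRNA a 2.24-fold range. With TMM the ranges were 2.86-fold and 2.16-fold. Replicate 2 was the highest and replicate 4 the lowest library for both rRNAs under each of the 6 scalings tried.

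The ratio of 16S to 12S counts lies within a library and needs no scaling. It was 3.63 in replicate 1 (exact 95% counting interval 3.60 to 3.66), 5.01 in replicate 2 (4.98 to 5.04), 3.58 in replicate 3 (3.55 to 3.60) and 3.79 in replicate 4 (3.75 to 3.83). Replicate 2 stood apart, and the intervals of replicates 1 and 3 overlapped slightly. Over all libraries the mean was 4.00 ± 0.677 (SD, n = 4). Over the libraries other than replicate 2 it was 3.67 ± 0.112 (SD, n = 3), a coefficient of variation of 3.06% against 16.9% with replicate 2. The 16S rRNA made up 83.4% of the combined rRNA counts in replicate 2 and 78.2% to 79.1% in the others. With a single group no test between conditions exists, and copies made by amplification are not marked in the counts, so these intervals cover counting error only.

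**Figure D3:**
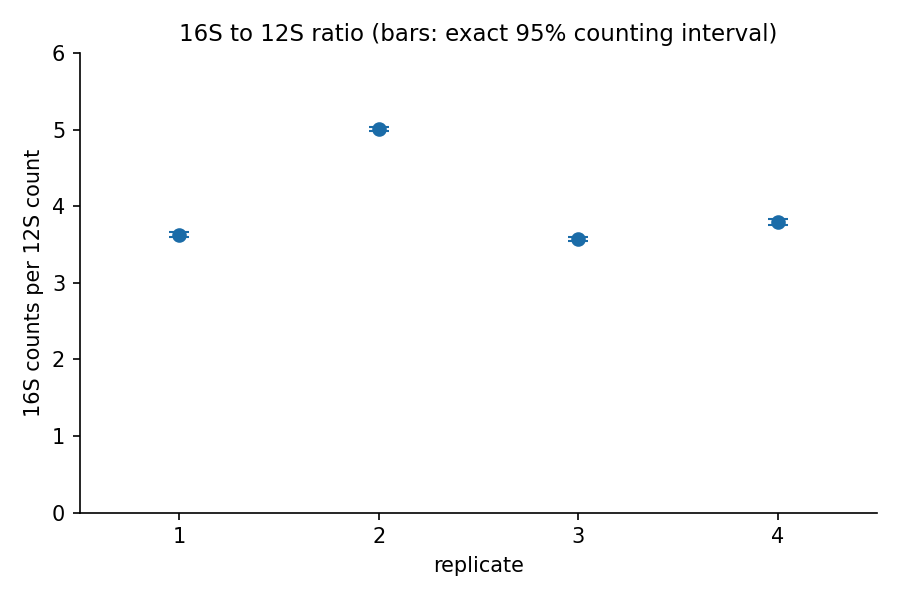
Number of 16S counts per 12S count in each library, on an axis that starts at 0, with exact 95% counting intervals as bars. Replicate 2 lay at 5.01 and the other libraries between 3.58 and 3.79.

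In replicate 2 both rRNAs were above the mean of the other libraries, but to a different degree. With gene totals, which hold replicate 2's own rRNA counts, the 16S level was 1.72 times and the 12S level 1.26 times that mean. The third gene stood at 0.709 times its mean in the other libraries. With totals that left out the rRNAs, the 12S rRNA stood at 103373 CPM in replicate 2 and 46152 to 78182 CPM in the others. On that scale the third gene stood at 60233 CPM in replicate 2. This was below replicates 1 (66911 CPM) and 3 (93327 CPM) but above replicate 4 (47711 CPM). Replicate 4 showed another pattern: both rRNAs were low and their ratio, 3.79, was near that of replicates 1 and 3. The low level of replicate 4 was thus shared by both rRNAs in nearly equal proportion, whereas the high level of replicate 2 was larger for the 16S rRNA.

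Pairs of libraries were also compared on the log2 scale after TMM scaling. Between replicates 2 and 4 the 16S rRNA differed by 1.51 and the 12S rRNA by 1.11, where the median absolute difference over 1448 genes of 100 CPM or more was 0.41. This pair is the highest against the lowest library for both rRNAs, while other genes were not read at their own extreme pair. The 16S difference was larger in size than that of 98.1% of these genes here, 90.5% between replicates 1 and 2, and 77.6% between replicates 2 and 3. For the 12S rRNA the same percentages were 92.5%, 59.3% and 34.2%. Between replicates 3 and 4 the differences were 0.77 for the 16S and 0.85 for the 12S rRNA, against a median of 0.36. Replicates 1 and 3 differed by -0.10 for the 16S rRNA and -0.12 for the 12S rRNA, both smaller in size than the median of 0.24. In the 3 pairs with replicate 2 the 16S difference exceeded the 12S difference by 0.40 to 0.49 in size. In the pairs without it, the sizes differed by 0.02 to 0.08. Scaling cancels between the rRNAs within a pair, so these gaps restate the 16S to 12S ratios and are no separate result.

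**Figure D4:**
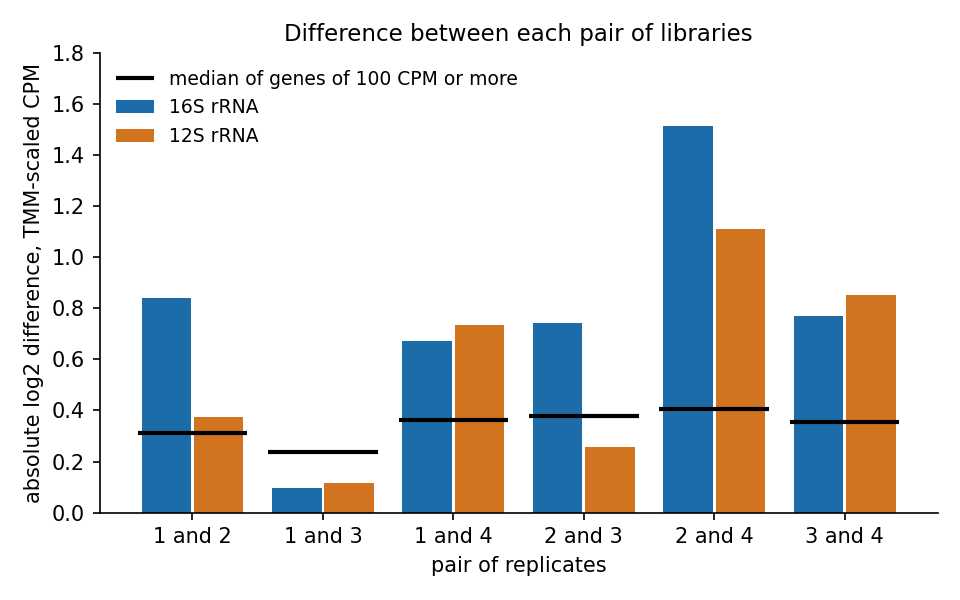
Absolute log2 difference of TMM-scaled CPM between each pair of replicates for the 16S rRNA and the 12S rRNA, with a line at the median of genes of 100 CPM or more. The bars of both rRNAs are of like height in pairs without replicate 2, and the 16S bar is the taller in each pair with it (1.51 against 1.11 for replicates 2 and 4). The gap between the bars of a pair restates the 16S to 12S ratios.

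Whether such a spread is unusual was read against all genes. By a chi-square test of each gene's counts against TMM-scaled library sizes, both rRNAs varied beyond counting noise at a Benjamini-Hochberg adjusted p under 0.05, but so did 65.7% of the 7571 genes tested and 120 of the 121 genes with 4000 counts or more. This call therefore says little about the rRNAs. Neither rRNA passed a test against the edgeR dispersion trend. The edgeR quasi-likelihood dispersion gave an adjusted p of 0.992 for the 16S and 0.994 for the 12S rRNA, where 0.0647% of 6186 genes passed. Few genes have levels near those of the rRNAs, so the trend at their position rests on little. The biological coefficient of variation, the spread beyond counting noise, had edgeR tagwise values of 0.337 for the 16S and 0.302 for the 12S rRNA. Tagwise values are weighted toward the trend, so they are not estimates from the single gene alone. Without such weighting, the coefficient of variation of TMM-scaled levels was 43.4% for the 16S and 29.3% for the 12S rRNA. The common biological coefficient of variation over all genes was 0.291, and 0.292 when the rRNAs were removed.

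By fold range, the place of the rRNAs among other genes depended on scaling. With deposited totals the 2.23-fold range of the 16S rRNA was above that of 70.0% of 5072 genes of 20 CPM or more, and the 1.69-fold range of the 12S rRNA above that of 38.5%. With TMM these percentages were 87.6% and 71.2%. Among the 55 other genes of 1000 CPM or more, 48 had a narrower range than the 16S rRNA and 35 a narrower one than the 12S rRNA after TMM scaling. The corresponding numbers with deposited totals were 36 and 22.

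Genes were finally ordered by how closely they followed the 16S rRNA, as the range over the 4 libraries of log2(gene count / 16S count). A low range means that the count per 16S count hardly changed between libraries. A gene of the same TMM level in all libraries would have a range of 1.51, that of the 16S rRNA itself between replicates 2 and 4. A median near that value thus largely restates the spread of the 16S rRNA. Of 1447 genes with a mean of 100 CPM or more, the 12S rRNA came eighth, with a range of 0.49 against a median of 1.60. Among the 56 genes of 1000 CPM or more it came first, where the median was 1.77. The third gene by mean, ENSRNOG00000062158.1, had a range of 1.54, near the median of 1.60 of the 1447 genes. Measured from the 12S rRNA, 55 of 1447 genes had a lower range than the 16S rRNA, and the median was 1.28. No test was attached to this order, and a low range says nothing about shared control.

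The position of the 12S rRNA in that order depended on replicate 4. Without this library 181 genes were closer to the 16S rRNA than the 12S rRNA was. Without replicate 2 the range of the 12S rRNA was 0.08, against a median of 0.90, and 7 genes were closer. The closest gene over all 4 libraries was ENSRNOG00000001185.7, with a range of 0.16. It stood at 139 CPM in replicate 1, 193 CPM in replicate 2, 128 CPM in replicate 3 and 96.5 CPM in replicate 4, so that 1 of its counts went with 1484 to 1658 counts of the 16S rRNA. Like the rRNAs it had its peak in replicate 2 and its minimum in replicate 4. With deposited totals 38 of 1446 other genes (2.63%) shared these extremes, with TMM 155 (10.7%), and with totals that left out the rRNAs 144 (9.96%). It was read from 112 to 385 counts per library, and its own counting error is therefore much larger than that of the rRNAs. The second closest gene, left without its identifier, had a range of 0.27.

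**Figure D5:**
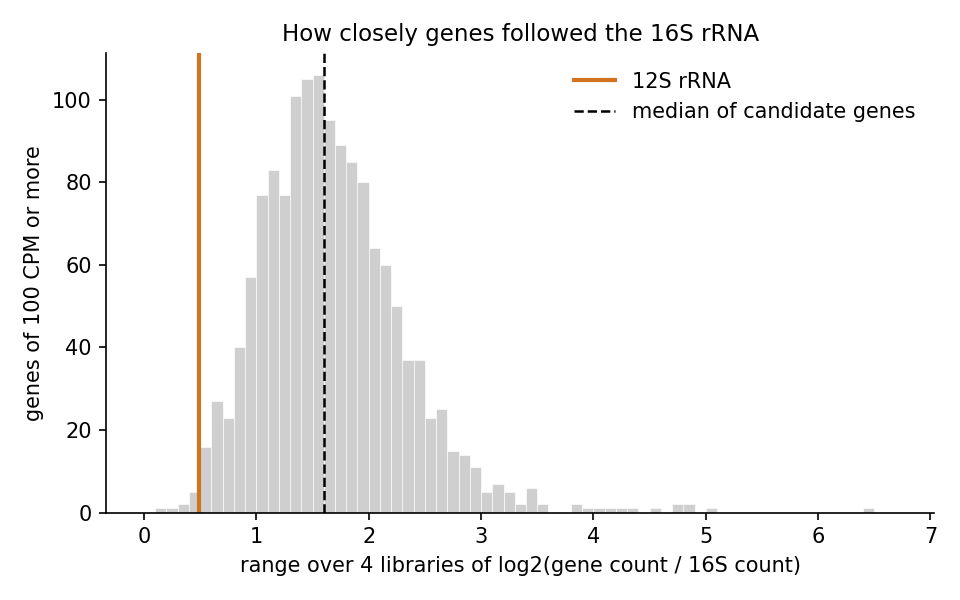
Number of genes of 100 CPM or more by the range over 4 libraries of log2(gene count / 16S count). The 12S rRNA (orange line) lies at 0.49, in the lower tail, and the median of the 1447 genes (dashed line) at 1.60.

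Other properties of the libraries were set beside these values. Reads assigned to no gene made up 38.3% of uniquely aligned reads in replicate 1, 34.4% in replicate 2, 34.9% in replicate 3 and 35.7% in replicate 4. Alignments that were not unique numbered 2.12 per uniquely aligned read in replicate 1, 1.56 in replicate 2, 1.50 in replicate 3 and 1.62 in replicate 4. Replicate 1 was highest in both, replicate 2 lowest in the first and replicate 3 in the second. Uniquely aligned reads include the rRNA counts, 765937 in replicate 2, so a high rRNA share lowers both values. As plain numbers, reads in no gene were 811664, 1049460, 894118 and 645244 in replicates 1 to 4, highest in replicate 2. Neither value is therefore a measure separate from the rRNA share. Depth by gene counts also contains the rRNAs, so it cannot be set beside their share as a separate measure. By the counts of other genes, replicates 2 and 3 were nearly equal, and so were replicates 1 and 4, while their rRNA shares differed. The part of depth, of reads shared with other copies of the rRNA sequences and of the culture itself in the rRNA levels was not tested. In RNA pooled from a culture, a different number of cells holding an RNA and a different amount per cell cannot be told apart.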

How the data were processed

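RNA was profiled by 3′ end sequencing (QuantSeq 3′ mRNA kit, single-end reads of 100 bases, per the labels' protocols) in 4 libraries of untreated FRT cells. The deposited files hold raw counts per gene, which the authors made with STAR and HTSeq against rn6, a rat genome build, according to the submitters' processing notes. Not given in the sources used here are whether strand and molecular identifiers were used, which annotation release served, and the versions. The 5 summary lines of the counter were left out of gene totals. None of the 32754 identifiers was linked to a symbol by the RefSeq table (GRCr8), so the mitochondrial gene lists and cell type markers of the plan were not analysed here.

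CPM is the count over the sum of gene counts, times 1000000. At these depths 1 count was worth 0.500 to 0.862 CPM. Ratios carry intervals from the exact binomial interval of the 16S share of both counts. The chi-square test (3 degrees of freedom) used genes with 40 counts or more in all, and edgeR an intercept-only design after its filter on low counts. The trend test used the prior degrees of freedom of the bulk of genes, a choice made after the default had recovered no changed gene in simulated data, on which the other tests were checked as well. The tools were edgeR 4.0.16 and DESeq2 1.42.0 in R 4.3.3.

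Named genes were the rRNAs, the third gene by mean CPM and the genes closest to the 16S rRNA, with 2 identifiers printed beyond the rRNAs. The genes, lists and tests were chosen with earlier results of these data known. Alternatives were other scalings, minimums and filters, and leaving out each library. The numbers of genes highest in each library and detected under other totals were chosen after seeing the data.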

Additional observations from a re-analysis of the deposited data

Results flagged for a closer look

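Of 12 sets of 4 library values examined, 1 had a library standing apart by Dixon's 95% critical value, where chance gives about 1 in 20. At that rate 1 flagged set of 12 can arise by chance. The sets are not independent: several hold the rRNA counts, and some are genes chosen for likeness to the 16S rRNA. The flagged set was the ratio of 16S to 12S counts, at 5.01 in replicate 2 and 3.58 to 3.79 elsewhere. Its gap was 0.850 of its range. The levels of the 16S and the 12S rRNA had gaps of 0.631 (replicate 2) and 0.740 (replicate 4) of their ranges, under the critical value.

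Reads outside the gene counts are not split by gene in the files, and none of them was assigned to the rRNAs here. Uniquely aligned reads assigned to no gene made up 35.8% ± 1.76 of uniquely aligned reads (SD, n = 4), and 1.70 ± 0.282 alignments per uniquely aligned read were set aside as not unique (SD, n = 4). A count of 0 would have allowed up to 3 reads.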

How the results depend on the processing

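No paired analysis was possible because all 4 libraries belong to 1 group. Per 1000000 uniquely aligned reads, other gene counts, or counts without the 20 most abundant genes, the mean level of the 16S rRNA was 140636, 313083 and 380646 and that of the 12S rRNA 34643, 76210 and 93080, by construction of the totals. With TMM, DESeq2 size factors and those 3 totals, the fold range of the 16S rRNA was 2.86, 2.83, 2.27, 2.96 and 2.95, and that of the 12S rRNA 2.16, 2.14, 1.72, 2.24 and 2.23. Leaving out a library gave fold ranges of 1.45 to 2.23 and of 1.12 to 1.69. The combined share was 17.5% of uniquely aligned reads and ran from 23.6% to 30.3% of gene counts with any 1 library omitted. The ratio was 4.15 from summed counts and 3.67 to 4.14 with any 1 library omitted. With a minimum of 400 counts 1877 of 2204 genes varied beyond counting noise, against 4973 of 7571 (65.7%). This was a smaller number but a larger share of the genes tested. Leaving out a library gave 3486 to 4220 genes, of 6831 to 7099 tested, each time a smaller share than with all libraries. Both rRNAs were called in each setting. So were 120 of the 121 genes with 4000 counts or more in the main setting, so the call says little about the rRNAs. The common biological coefficient of variation was 0.355 without the filter on low counts and 0.309 with deposited totals (the cause was not tested), and 0.278 to 0.316 over the leave-one-out fits. The number of genes closer to the 16S than the 12S rRNA was 0 of 56 with a minimum of 1000 CPM and 7 to 181 over the leave-one-out sets. Genes highest in replicate 2 numbered 374 with DESeq2 size factors. Depth limits statements below 1.50 to 2.59 CPM, the level of 3 counts, far under the rRNA levels.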
